A study of Rattus norvegicus with 12 samples.

Results

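Leukocyte adhesion was examined through 9 genes in brain RNA, chosen by name: the endothelial selectins Sele and Selp, the endothelial immunoglobulin-type receptors Icam1, Icam2 and Vcam1, and the leukocyte-side genes Selplg, Itgal, Itgb2 and Itga4. All 9 had 1 row each in a table of 31177 rows, and all 9 were among the 18850 genes with enough counts to be tested. The 12 libraries came from 3 groups of 4: the AD-HFD group (an Alzheimer's disease model on a high-fat diet), the AD group (the same disease model) and a control group called Sham. How the disease model was made, the age of the animals, the length of the diet, the diet of the other groups and the brain region are not given in the sources used here. The labels call the animals mice, while the organism field is Rattus norvegicus and the table uses rat Ensembl identifiers, so the genes are treated as rat genes. No group had the diet without the model, so the diet was compared only within the model.

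White blood cells leave the bloodstream in steps. Selectins on activated endothelium catch passing cells by their sugar-bearing ligands, of which PSGL-1 (Selplg) is the best known, and the cells roll. Chemokine signals then switch on leukocyte integrins, and LFA-1 (the Itgal and Itgb2 chains together) grips ICAM-1 and ICAM-2 while VLA-4 (Itga4 with Itgb1) grips VCAM-1. Resting brain endothelium carries little E-selectin or P-selectin, and Sele, Icam1 and Vcam1 are textbook targets of TNF, interleukin 1 and NF-kB in endothelial cells. In the brain several of these genes have more than 1 source: microglia express Itgb2 and Selplg, and astrocytes and pericytes can express Vcam1 and Icam1.

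The libraries held 26668974 to 35351792 counts. They differed in tissue content as well as by group. The cortical transporter gene Slc17a7 stood at 288 to 1257 CPM (counts per 1000000, scaled by TMM) in AD-HFD, 4.29 to 828 CPM in AD and 1223 to 1704 CPM in Sham. The thalamic factor Tcf7l2 stood at 99.1 to 391 CPM in the AD group apart from AD-3, and at 5.17 to 14.1 CPM elsewhere. AD-HFD-4 stood apart by its vascular and blood genes: the summed level of 14 endothelial marker rows was 3628 CPM there, against 361 to 1106 CPM in the other AD-HFD libraries, 394 to 531 CPM in AD and 350 to 429 CPM in Sham. Its 5 red blood cell marker rows summed to 4207 CPM, against 159 to 361 CPM in Sham. The endothelial marker Cldn5 was listed at 0 counts in 10 of 12 libraries, although brain endothelium is known for it, and Pecam1 was not analysed here. Whether every library had its own animal is not stated, and p-values refer to the spread among these samples. In bulk tissue a change in the number of cells of a type and a change in RNA per cell cannot be told apart.

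Promoter windows from RefSeq (build GRCr8, from 250 bases before to 50 after the annotated start) were available for 4 of the 9 genes, Icam1, Vcam1, Sele and Itga4. Those of the 3 classical cytokine-inducible endothelial genes are printed because Sele and Icam1 rose in AD-HFD while Vcam1 did not pass the test; the difference between the genes was not itself tested. Each reads 5′ to 3′ along the gene. Icam1 lies at chr8:27829595-27829894 on the plus strand, Vcam1 at chr2:206742734-206743033 on the minus strand and Sele at chr13:78936264-78936563 on the plus strand. Capitals mark motif matches.
Icam1: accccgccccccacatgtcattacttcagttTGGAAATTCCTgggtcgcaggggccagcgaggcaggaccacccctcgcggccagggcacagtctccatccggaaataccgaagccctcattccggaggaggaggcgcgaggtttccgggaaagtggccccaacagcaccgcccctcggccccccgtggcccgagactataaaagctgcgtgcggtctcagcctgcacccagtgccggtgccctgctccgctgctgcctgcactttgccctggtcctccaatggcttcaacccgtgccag
Vcam1: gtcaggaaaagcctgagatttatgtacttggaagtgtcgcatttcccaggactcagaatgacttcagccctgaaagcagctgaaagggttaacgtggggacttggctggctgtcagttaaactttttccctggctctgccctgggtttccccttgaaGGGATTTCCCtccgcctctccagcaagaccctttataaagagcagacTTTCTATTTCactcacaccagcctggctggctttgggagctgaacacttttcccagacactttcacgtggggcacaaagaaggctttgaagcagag
Sele: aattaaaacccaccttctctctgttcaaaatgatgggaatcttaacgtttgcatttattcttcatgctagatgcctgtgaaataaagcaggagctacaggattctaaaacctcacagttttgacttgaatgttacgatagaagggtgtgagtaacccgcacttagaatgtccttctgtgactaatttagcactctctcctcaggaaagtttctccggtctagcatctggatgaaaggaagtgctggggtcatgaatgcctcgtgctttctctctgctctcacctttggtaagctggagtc
Of 3 motifs searched first on both strands, a narrow form of the kappaB site was in none of the 4 windows and in 1.53% of 33469 RefSeq promoter windows of the same length. The AP-1 site TGANTCA was likewise in none, against 7.33% of all windows. The interferon response element was in 3.92% of all windows and matched Vcam1 on the reverse strand at position -46 (the first base of the match, counted from 0 at the start), where the printed strand reads TTTCTATTTC. Looser forms were searched after the sequences had been seen. The kappaB consensus, held by 4.18% of all windows, matched Vcam1 at position -93, GGGATTTCCC, on both strands. The Rel consensus, held by 7.73%, matched Icam1 at position -219, TGGAAATTCC, and at position -218 on the reverse strand, overlapping it. Sele and Itga4 held none of these 5 motifs within their windows. For Sele the 50 bases from the annotated start open with ATG, so this start may be that of the coding sequence. Its window may then miss the promoter, and the lack of a match there says nothing about kappaB or AP-1 sites of Sele. These matches are letters in a sequence; no binding was measured.

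Sele, which encodes E-selectin, had the widest range of the 9 genes. It stood at 71.0, 49.0, 2.22 and 174 CPM in AD-HFD-1 to AD-HFD-4. It stood at 1.21, 1.28, 13.4 and 8.38 CPM in AD-1 to AD-4, and at 0.205, 0.256, 0.374 and 0.268 CPM in Sham-1 to Sham-4. Every AD-HFD and every AD library lay above every Sham library, and AD-HFD-3 lay within the AD range. The group means were 74.0 ± 72.5 CPM in AD-HFD, 6.08 ± 5.95 CPM in AD and 0.276 ± 0.0713 CPM in Sham (SD, n = 4 each), from 8996, 747 and 34 counts. In AD-HFD against Sham Sele rose by 8.06 ± 1.35 on the log2 scale (SE, adjusted p = 0.00309, quasi-likelihood test of edgeR, Benjamini-Hochberg adjustment over all 18850 genes). By size of log2 fold change it ranked 49 of the 18850 genes in that comparison.

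Selp encodes P-selectin, which endothelial cells and platelets store in granules and bring to the surface on activation. Its levels were 10.3, 6.5, 0.782 and 45.6 CPM in AD-HFD-1 to AD-HFD-4. They were 0.520, 0.263, 2.58 and 0.689 CPM in AD-1 to AD-4, and 0.643, 0.160, 0.442 and 0.167 CPM in Sham-1 to Sham-4. AD-HFD did not overlap with Sham, while the AD and Sham ranges did. Selp rose in AD-HFD against Sham (log2 5.45 ± 1.15, adjusted p = 0.00647 by edgeR), with 1914 counts in AD-HFD and 45 in Sham. The 5 platelet marker rows summed to 3.78 to 7.49 CPM in AD-HFD, 1.45 to 5.11 CPM in AD and 1.61 to 2.33 CPM in Sham, with Ppbp at 0 counts throughout AD and Sham. Pf4, 1 of the 2 platelet markers tested and also known from border macrophages, rose in AD-HFD against Sham (log2 1.81 ± 0.480, adjusted p = 0.0164). The part of platelets in the Selp result was not tested. Sele and Selp reached the level asked by the low-count filter (0.324 CPM) in 1 and 2 Sham libraries, against all 4 AD-HFD libraries for both, so they entered the test through the groups in which they were high.

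**Figure D1:**
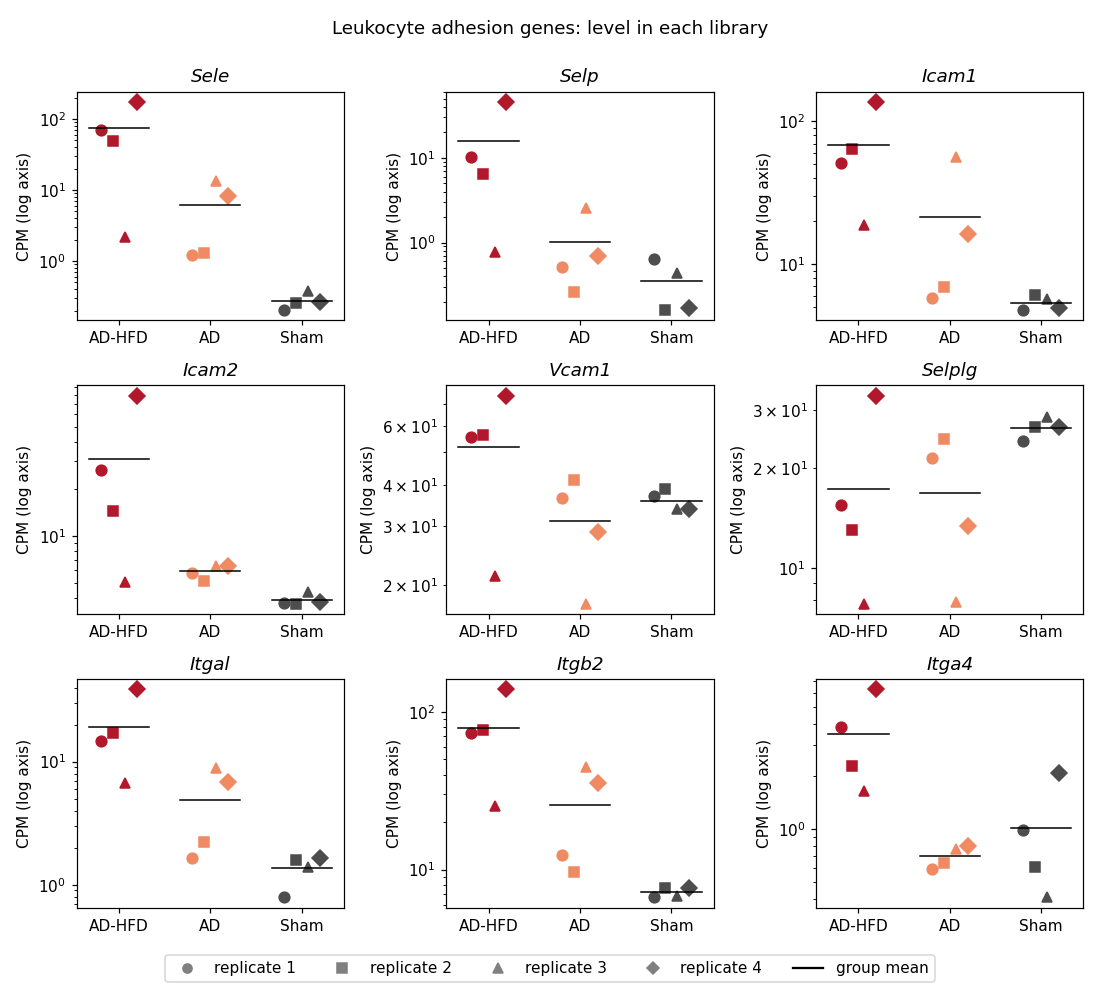
Level of each of the 9 genes in the 12 libraries, in CPM on a log axis whose range differs between panels; points are libraries, shapes are replicate numbers and lines are group means. AD-HFD-4 is the highest of the 12 libraries in all 9 panels, and AD-HFD-3 is the lowest of its group in all 9.

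Icam1, the inducible endothelial ligand of LFA-1, stood at 51.6, 64.6, 19.0 and 137 CPM in AD-HFD-1 to AD-HFD-4. In AD-1 to AD-4 the levels were 5.82, 6.97, 56.7 and 16.4 CPM, and in Sham-1 to Sham-4 4.79, 6.10, 5.75 and 4.96 CPM. The AD group was split, with AD-1 and AD-2 next to Sham and AD-3 within the AD-HFD range. Icam1 rose in AD-HFD against Sham (log2 3.65 ± 0.757, adjusted p = 0.00597 by edgeR), with means of 68.0 ± 49.7 CPM in AD-HFD and 5.40 ± 0.628 CPM in Sham (SD, n = 4 each). In the RefSeq gene order, looked up after the values were seen, Icam1 lies between Mrpl4 and Icam4, with S1pr2 beyond the first and Icam5 beyond the second. S1pr2, a receptor for sphingosine 1-phosphate, rose in AD-HFD against Sham (log2 2.04 ± 0.457, adjusted p = 0.00817 by edgeR), and Mrpl4 did not pass (-0.22 ± 0.144, adjusted p = 0.253). Icam4, a red cell adhesion gene, and Icam5, a neuronal one, did not pass either (log2 -0.76 ± 0.495, adjusted p = 0.247, and -1.19 ± 0.771, adjusted p = 0.247).

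Icam2, a ligand of LFA-1 that endothelium carries at rest, had 26.3, 14.4, 5.10 and 78.8 CPM in AD-HFD-1 to AD-HFD-4. The AD libraries lay close together, at 5.78, 5.16, 6.40 and 6.42 CPM in AD-1 to AD-4, and the Sham libraries at 3.74, 3.67, 4.35 and 3.78 CPM in Sham-1 to Sham-4. Both model groups lay above Sham without overlap, but AD-HFD-3 was below all 4 AD libraries. Icam2 rose in AD-HFD against Sham (log2 3 ± 0.629, adjusted p = 0.00623 by edgeR). Its log2 fold change of 0.61 ± 0.612 in AD against Sham did not pass (adjusted p = 0.582). For setting beside it, the summed endothelial markers were 2.85, 1.64, 0.93 and 9.34 times the Sham mean in AD-HFD-1 to AD-HFD-4. That sum includes markers that were not called higher.

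Vcam1, the ligand of VLA-4, gave no such contrast. It stood at 55.5, 56.2, 21.3 and 73.9 CPM in AD-HFD-1 to AD-HFD-4, against 36.6, 41.2, 17.6 and 28.9 CPM in AD-1 to AD-4 and 37.1, 38.8, 33.7 and 33.8 CPM in Sham-1 to Sham-4. The 3 groups overlapped: AD-HFD-3, AD-3 and AD-4 lay below every Sham library, AD-1 lay within the Sham range, and AD-2 and the other 3 AD-HFD libraries lay above it. Vcam1 passed in no comparison, with 0.53 ± 0.330 (log2) in AD-HFD against Sham (adjusted p = 0.228), a value of 0.73 ± 0.331 for AD-HFD against AD (adjusted p = 0.157) and one of -0.21 ± 0.330 for AD against Sham (adjusted p = 0.745; edgeR throughout). Without AD-HFD-3 it was called in AD-HFD against Sham (log2 0.79, adjusted p = 0.0209), and the AD-HFD against AD value, 0.99, was called too (adjusted p = 0.0145).

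Among the leukocyte-side genes, Itgal and Itgb2, which encode the CD11a and CD18 chains of LFA-1, ranked the libraries in the same order except for AD-1 and AD-2. Itgal stood at 14.7, 17.1, 6.72 and 38.6 CPM in AD-HFD-1 to AD-HFD-4, at 1.66, 2.22, 8.83 and 6.82 CPM in AD-1 to AD-4 and at 0.789, 1.60, 1.39 and 1.64 CPM in Sham-1 to Sham-4. Itgb2, whose chain is shared by all CD11 integrins, stood at 73.8, 76.8, 25.2 and 139 CPM in AD-HFD-1 to AD-HFD-4, at 12.4, 9.60, 44.8 and 35.4 CPM in AD-1 to AD-4 and at 6.66, 7.60, 6.84 and 7.67 CPM in Sham-1 to Sham-4. For both, all 8 model libraries lay above all 4 Sham libraries, and AD-3 and AD-4 were the high pair of the AD group. In AD-HFD against Sham Itgal rose by 3.83 ± 0.648 (adjusted p = 0.00322) and Itgb2 by 3.45 ± 0.565 (adjusted p = 0.00297) on the log2 scale, by edgeR.

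Itga4, the alpha chain of VLA-4, had few counts, 429 in AD-HFD, 86 in AD and 127 in Sham. It stood at 3.81, 2.29, 1.66 and 6.25 CPM in AD-HFD-1 to AD-HFD-4, at 0.589, 0.642, 0.769 and 0.798 CPM in AD-1 to AD-4 and at 0.993, 0.607, 0.408 and 2.08 CPM in Sham-1 to Sham-4. AD-HFD lay above AD without overlap, and Sham-4 lay within the AD-HFD range. Itga4 rose in AD-HFD against Sham (log2 1.77 ± 0.498, adjusted p = 0.0203 by edgeR). That call was lost without AD-HFD-4, Sham-1, Sham-2 or Sham-3 (adjusted p 0.0553 to 0.0632).

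Selplg, which encodes PSGL-1, the ligand of P-selectin on leukocytes, lay below Sham in most model libraries. Its levels were 15.4, 13, 7.82 and 33 CPM in AD-HFD-1 to AD-HFD-4, 21.4, 24.4, 7.91 and 13.4 CPM in AD-1 to AD-4 and 24.2, 26.7, 28.6 and 26.5 CPM in Sham-1 to Sham-4. All model libraries but AD-HFD-4 and AD-2 lay below all 4 Sham libraries. The log2 fold changes of -0.61 ± 0.409 in AD-HFD against Sham and -0.66 ± 0.410 in AD against Sham did not pass (adjusted p = 0.261 and 0.356 by edgeR). Without AD-HFD-4 the AD-HFD against Sham value was -1.13 and was called (adjusted p = 0.0436). In rodent brain Selplg is known as a gene of resting microglia. P2ry12 and Gpr34, microglial receptor genes of the same kind, fell in AD-HFD against Sham (log2 -1.59 ± 0.388, adjusted p = 0.0114, and -1.22 ± 0.393, adjusted p = 0.0343), while the C1q chains and Csf1r rose.

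Set side by side, 7 of the 9 genes rose in AD-HFD against Sham and none fell, when 32.7% of all genes tested were called, 19.7% higher and 12.9% lower. The median log2 fold change of the 9 was 3.45, against 0.03 over all genes. The groups did not overlap for 6 of the 9 (all but Vcam1, Selplg and Itga4), each with AD-HFD higher, against 18.9% of all genes; 16.2% of all genes, and none of the 9, were lower without overlap. Leaving out any 1 of the 12 libraries left Sele, Selp, Icam1, Icam2, Itgal and Itgb2 called. Without AD-HFD-4, the library richest in endothelial and red cell genes, their log2 fold changes were 7.20, 4.02, 3.06, 1.97, 3.25 and 3.03 in that order. With limma voom, Sele (adjusted p = 0.0952) and Selp (adjusted p = 0.0792) were not called. The 8 cortex marker rows summed to 484 to 1970 CPM in AD-HFD and 2360 to 2850 CPM in Sham. Model, diet and tissue content therefore cannot be told apart in this comparison.

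**Figure D2:**
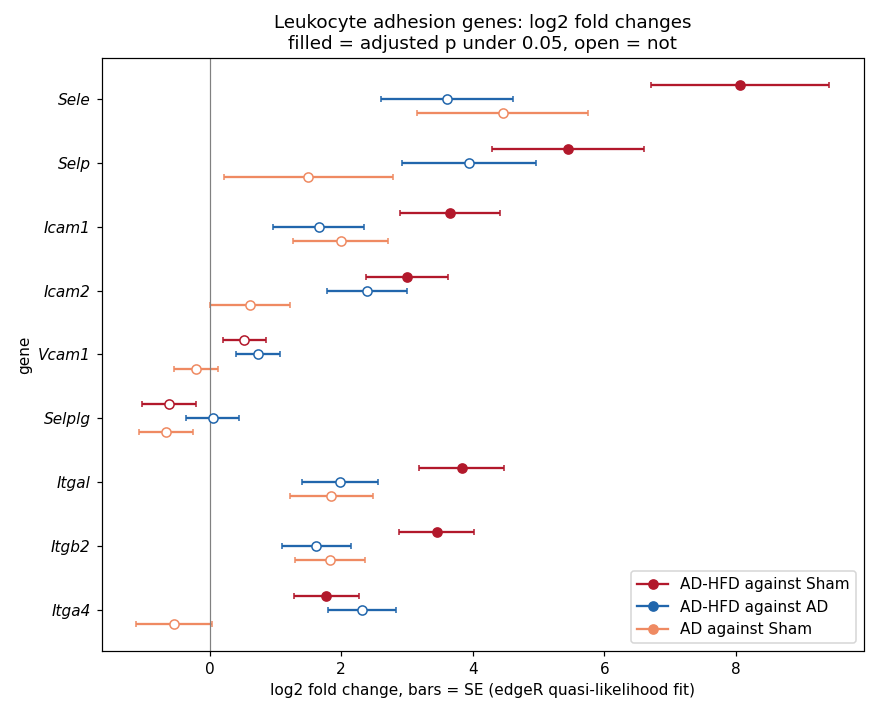
log2 fold change of each gene in the 3 comparisons, with bars for the SE and filled points for an adjusted p under 0.05. Only the AD-HFD against Sham points of Sele, Selp, Icam1, Icam2, Itgal, Itgb2 and Itga4 are filled; Vcam1 and Selplg lie closest to 0 there.

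AD-HFD against AD, the comparison of the diet within the model, gave log2 fold changes above 0 for all 9 genes, but none was called by edgeR, and that of Selplg was so near 0 that it turned below 0 under other scalings and fits. The whole comparison called only 2 genes, 0.0106% of those tested. The 2 groups also differed in region genes. The 8 thalamus marker rows summed to 83.7 to 112 CPM in AD-HFD and 129 to 1900 CPM in AD. The 8 cortex marker rows summed to 484 to 1970 CPM in AD-HFD and 96 to 1280 CPM in AD. Diet and tissue content therefore cannot be told apart in this comparison. The log2 fold changes were 3.94 ± 1.01 for Selp, 3.60 ± 1.00 for Sele, 2.39 ± 0.609 for Icam2 and 2.32 ± 0.524 for Itga4 (adjusted p 0.0605 to 0.0623). They were 1.98 ± 0.578 for Itgal, 1.62 ± 0.522 for Itgb2, 1.66 ± 0.691 for Icam1 and 0.04 ± 0.410 for Selplg (adjusted p 0.0662 to 0.951). At an unadjusted p under 0.05, 8 of the 9 passed (all but Selplg), against 30.5% of all genes. DESeq2 called 6 of the 9 and limma voom none. Itga4 was the only one of the 9 whose AD-HFD and AD libraries did not overlap with AD-HFD higher, as was so for 2.72% of all genes, and none of the 9 was lower without overlap, against 2.74% of all genes. The count of 0 moved most with 2 libraries: without AD-HFD-3 it was 8 (all but Selplg) and without AD-3 it was 7 (all but Selplg and Vcam1), when 5321 and 5841 of all genes were called.

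In AD against Sham none of the 9 was called either, when 6.23% of all genes were called by edgeR, 3.07% higher and 3.16% lower. Sele (log2 4.46 ± 1.30, adjusted p = 0.0624) and Itgb2 (1.83 ± 0.537, adjusted p = 0.0644) came nearest. Icam1 stood at 1.99 ± 0.718 (adjusted p = 0.117), Itgal at 1.85 ± 0.636 (0.103), Selp at 1.5 ± 1.28 (0.511) and Itga4 at -0.54 ± 0.573 (0.604). At an unadjusted p under 0.05, 4 passed (Sele, Itgb2, Icam1 and Itgal, all higher), against 24% of all genes. DESeq2 called these 4 and limma voom none. Sele, Icam2, Itgal and Itgb2 were higher in AD without overlap, as were 10.3% of all genes. By edgeR, Sele and Itgb2 were called without AD-HFD-3 (adjusted p = 0.0153 and 0.027) or AD-HFD-4 (0.0456 and 0.0436), and Itgb2 also without AD-2 (0.042). AD-HFD-3 and AD-HFD-4 are in neither group compared here. They enter through the shared spread, the gene filter and the scaling of the common fit. Without AD-3 the log2 fold change of Icam1 was 0.85 and that of Selp 0.41. AD-3 also differed from the other 3 AD libraries in the region markers given above. The 8 cortex marker rows summed to 96 to 1280 CPM in AD and 2360 to 2850 CPM in Sham, so model and tissue content cannot be told apart either. The 3 comparisons share their groups, so their values are not independent of each other.

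Most endothelial markers rose in AD-HFD against Sham, as did Sele, Selp, Icam1 and Icam2 but not Vcam1. Of 13 endothelial markers tested, 9 were called higher (median log2 2.21 over the 13), against 19.7% of all genes. Among the 9 were Kdr (3.57 ± 0.723), Cdh5 (3.03 ± 0.617), Flt1 (2.10 ± 0.432) and Vwf (3.26 ± 0.679). The other 4 were not called: Abcb1a (0.75 ± 0.469), Mfsd2a (-0.09 ± 0.324), Itm2a (-0.51 ± 0.582) and Slco1a4 (-0.63 ± 0.681). In AD against Sham none of the 13 passed by edgeR, DESeq2 or limma voom, or at an unadjusted p under 0.05. In the summed endothelial markers, rows with higher levels weigh more. Itm2a, Slco1a4 and Abcb1a, which were not called, had Sham means of 70.4, 63.6 and 54.2 CPM. Those of Kdr, Cdh5, Vwf and Flt1 were 11.7, 16.7, 35.0 and 49.1 CPM. Set against the summed endothelial markers, Sele was 88.6, 106, 8.49 and 66.2 times its Sham mean share in AD-HFD-1 to AD-HFD-4. It was 3.69, 3.34, 40.5 and 29.3 times that share in AD-1 to AD-4. Every one of these lay above the Sham range of 0.695 to 1.48 times. Icam1 was at 2.70 to 7.26 times in AD-HFD and 0.918 to 8.85 times in AD, against 0.844 to 1.18 times in Sham. Selp was at 2.36 to 13.7 times in AD-HFD and 0.538 to 6.14 times in AD, against 0.405 to 1.72 times in Sham. Icam2 was at 1.39 to 2.35 times in AD-HFD and 0.96 to 1.61 times in AD, against 0.846 to 1.23 times in Sham. Its log2 fold change in AD-HFD against Sham, 3 ± 0.629, lay above the median of the 13 markers and below the values of Kdr, Cdh5 and Vwf. Vcam1 lay below its Sham range of 0.977 to 1.04 times in all 8 model libraries, at 0.22 to 0.956 times in AD-HFD and 0.416 to 0.873 times in AD. AD-HFD-3 had an endothelial marker sum of 361 CPM, within the Sham range. Its 2.22 CPM of Sele and 19.0 CPM of Icam1 were above every Sham library. So were its levels of 7 of the 13 endothelial markers, which were higher in AD-HFD without overlap. Kdr, 1 of them, was at 29.3 CPM or more in AD-HFD and at most 15.4 CPM in Sham.

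**Figure D3:**
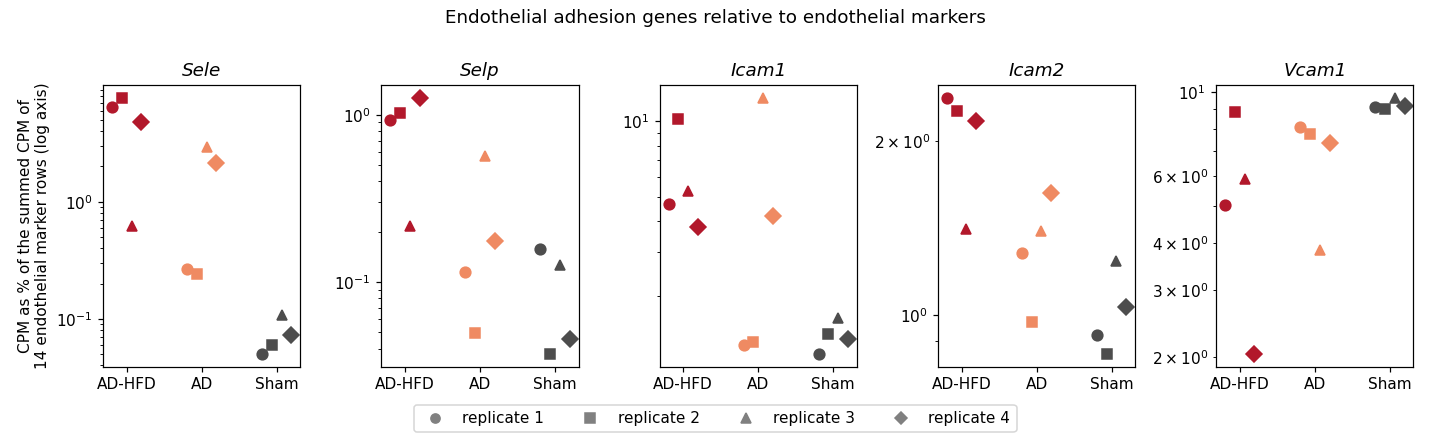
CPM of the 5 endothelial members as a percentage of the summed CPM of 14 endothelial marker rows, by library, on log axes whose ranges differ between panels. Sele stays above Sham in all 8 model libraries on this scale (3.34 to 106 times the Sham mean), and Vcam1 lies below Sham in all 8.

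Markers of neutrophils and of border macrophages and monocytes rose in AD-HFD against Sham, as did Itgal, Itgb2 and Itga4 but not Selplg. Over all genes, 19.7% were called higher and 12.9% lower in that comparison, and 3.07% and 3.16% in AD against Sham. Of 6 neutrophil markers tested, 6 rose in AD-HFD against Sham and 3 in AD against Sham, namely S100a8 (log2 6.14 ± 0.822 in AD-HFD and 4.39 ± 0.834 in AD), S100a9 and Mmp8; limma voom called 5 and 0 of the 6. The 9 neutrophil rows summed to 21 to 243 CPM in AD-HFD and 22.8 to 49.9 CPM in AD, against 2.44 to 4.24 CPM in Sham. Mpo, another gene of the neutrophil list, was at no more than 0.646 CPM in any library, and Elane and Cxcr2 had no counts in Sham. Camp stayed at no more than 0.170 CPM in Sham, and the border macrophage marker Ms4a7 at no more than 0.256 CPM. Those levels are under the filter level of 0.324 CPM, so Cxcr2, Camp and Ms4a7 entered the test through the model groups, where they were higher. All 6 border macrophage and monocyte markers rose in AD-HFD against Sham and 3 (Cd163, F13a1 and Mrc1) in AD against Sham, where limma voom called 0, with sums of 125 to 897 CPM in AD-HFD, 74.6 to 167 CPM in AD and 36.9 to 53.3 CPM in Sham. Of 11 microglia markers tested 6 rose and 2 fell in AD-HFD against Sham. The 12 microglia rows summed to 459 to 712 CPM in AD-HFD, 388 to 510 CPM in AD and 300 to 344 CPM in Sham, with Siglech at 0 counts in AD and Sham. Set against these sums, Itgb2 gave different pictures. Relative to the microglia sum it was at 2.40 to 8.53 times its Sham mean in AD-HFD and 1.04 to 3.85 times in AD, against 0.954 to 1.11 times in Sham. Relative to the border macrophage and monocyte sum it was at 0.937 to 1.53 times in AD-HFD and 0.779 to 2.05 times in AD, which overlapped with 0.864 to 1.26 times in Sham. Relative to the neutrophil sum it was lower, at 0.259 to 0.602 times in AD-HFD and 0.191 to 0.677 times in AD, against 0.713 to 1.42 times in Sham. Of 5 T and NK cell markers tested 1, Cd8a, rose in AD-HFD against Sham (log2 3.71 ± 0.890), against 19.7% of all genes. The 9 T and NK cell rows summed to 2.28 to 26.2 CPM in AD-HFD, 3.12 to 5.33 CPM in AD and 3.5 to 5.75 CPM in Sham. The 3 B cell rows summed to no more than 3.86 CPM and none was tested. The 5 red blood cell markers tested all rose in AD-HFD against Sham (median log2 2.67), with sums of 253 to 4207 CPM in AD-HFD, 271 to 611 CPM in AD and 159 to 361 CPM in Sham. Of 10 pericyte and smooth muscle markers tested 6 rose in AD-HFD against Sham and 1, Abcc9, in AD against Sham, with sums of 277 to 713 CPM in AD-HFD, 193 to 280 CPM in AD and 167 to 233 CPM in Sham. Of 7 leptomeningeal fibroblast markers tested 4 rose in AD-HFD against Sham (Dcn, Lum, Col1a2 and Col1a1) and none was called in AD against Sham by edgeR, DESeq2 or limma voom, or at an unadjusted p under 0.05. Their sums were 90.8 to 551 CPM in AD-HFD, 30.7 to 77.4 CPM in AD and 41.8 to 117 CPM in Sham. The part of cell content in the adhesion gene results was not tested; the ratios to marker sums describe the libraries.

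**Figure D4:**
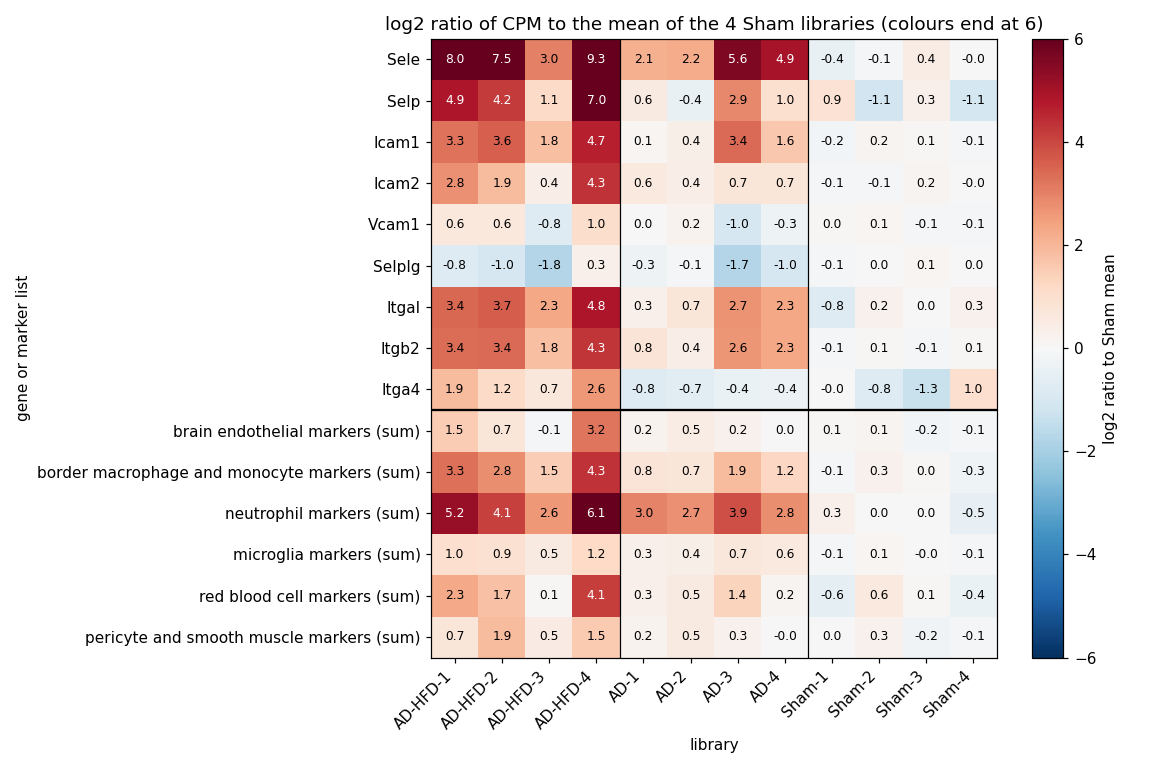
log2 ratio of each library to the mean of the 4 Sham libraries, for the 9 genes and for the summed CPM of 6 marker lists; colours end at 6 in either direction. AD-HFD-4 has the highest value in every row except the pericyte list, where AD-HFD-2 is highest, and Sele has the largest ratio of the 9 genes in each of the 8 model libraries.

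The other genes of the adhesion cascade were counted by role. Bracketed values are log2 fold changes ± SE from edgeR. Over all genes, 19.7% were called higher and 12.9% lower in AD-HFD against Sham, and 3.07% and 3.16% in AD against Sham. Of 10 tested genes of leukocyte integrins and their activation, 8 rose and 1 fell in AD-HFD against Sham (median log2 2.06), and 2 rose in AD against Sham. The smallest p in the first comparison belonged to Fermt3, the kindlin of blood cells (3.48 ± 0.532), Itgam, the CD11b partner of Itgb2 (4.14 ± 0.651), Tln1, talin (1.91 ± 0.315), and Itgb1, the partner of Itga4 in VLA-4 (2.20 ± 0.372). In AD against Sham Itgam (2.62 ± 0.615) and Fermt3 (1.89 ± 0.512) rose, and neither was called by limma voom. Of 11 tested selectin ligands and sugar-transferase genes, 7 rose and 1 fell in AD-HFD against Sham (median log2 1.53). Fut4, a fucosyltransferase that helps build selectin ligands, rose by 2.71 ± 0.436. The sialyltransferase St3gal4 rose by 1.26 ± 0.221 and B4galt1 by 2.94 ± 0.519. Fut4 was the 1 gene of this list called in AD against Sham (2.13 ± 0.434). The genes that fell were Rasgrp2, an activator of Rap1 (-1.10 ± 0.350), among the integrin genes and Glg1, an E-selectin ligand (-0.70 ± 0.174), among the selectin ligands.

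In AD-HFD against Sham 19.7% of all genes were called higher. Of 10 tested junction and transmigration genes 4 rose in that comparison (median log2 0.78): Esam (3.16 ± 0.597), Cdh5, the junction protein F11r (2.42 ± 0.613) and Cd99 (1.38 ± 0.358). Of 8 other immunoglobulin-type and mucin receptors 3 rose (median log2 0.02): Mcam (2.23 ± 0.374), Podxl (2.94 ± 0.530) and Glycam1 (6.35 ± 1.72). Glycam1, a mucin, had 265 CPM in AD-HFD-1 and 19.6 CPM in AD-HFD-2, and its highest level elsewhere was 1.98 CPM. The choroid plexus gene Ttr had 9695 CPM in AD-HFD-1 and 484 CPM in AD-HFD-2, against 1.85 CPM in AD-HFD-3 and 8.32 CPM in AD-HFD-4. Sham-2 and Sham-3 also had high Ttr, 4203 and 4286 CPM, with 1.98 and 1.53 CPM of Glycam1. Cd34, a mucin of endothelial and progenitor cells, fell in AD against Sham (-3.05 ± 0.565, adjusted p = 0.012) and was at 5.22 to 56.0 CPM in AD-HFD, 4.64 to 6.12 CPM in AD and 37.0 to 52.3 CPM in Sham.

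The cytokine and NF-kB genes upstream of Sele, Icam1 and Vcam1 in textbook accounts rose broadly in AD-HFD. Of 13 tested, 12 rose against Sham and none fell (median log2 3.01), when 19.7% of all genes were called higher and 12.9% lower. In AD against Sham 1, Il1b, rose (3.54 ± 0.871), though not by limma voom, when 3.07% of all genes were called higher. Il1b (5.49 ± 0.819), the TNF receptor gene Tnfrsf1a (3.09 ± 0.498), Nfkb2 (3.38 ± 0.596) and Irf1 (2.68 ± 0.479) had the smallest p. Among shear-responsive genes, Klf2 and Klf4 are known to hold endothelial adhesion genes down. The listed shear-responsive genes rose too, 4 of 4 in AD-HFD against Sham (median log2 3.63). They were Klf4 (3.08 ± 0.501), Nos3 (4.18 ± 0.702), Thbd (4.32 ± 0.837) and Klf2 (2.94 ± 0.627). None of the 4 was called in AD against Sham by edgeR (2 at an unadjusted p under 0.05, 1 by DESeq2 and 0 by limma voom). In AD-HFD against AD no gene of these 6 lists was called by edgeR or limma voom. At an unadjusted p under 0.05 by edgeR, 12 of the 13 cytokine and NF-kB genes and 4 of the 4 shear-responsive genes passed, against 30.5% of all genes. DESeq2 called 11 and 4 of them.

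The genes whose log2 CPM most resembled each member over the 12 libraries, out of 13167 named genes with a mean of at least 1 CPM, differed between members. Nearest to Itgb2 were Tyrobp, Lsp1 and Fgr, genes of myeloid cells (Pearson r 0.991 to 0.995). Nearest to Itgal were Vav1, P2ry6 and Clic1 (0.987 to 0.990), and nearest to Sele were Hcls1, Ptpn6 and MGC105649 (0.991 to 0.992). Icam2 was nearest to Hhex, Ephb4 and Sptlc2 (0.988 to 0.995), Icam1 to Sec61a1, Ccdc86 and Ddx39a (0.992 to 0.994) and Selp to Mbd2, Bcl6b and Arhgap9 (0.978 to 0.983). Vcam1 (Pir, Chchd3 and Tdrd7, 0.923 to 0.927), Selplg (Itm2a, Cyth1 and Gstt3, 0.947 to 0.957) and Itga4 (Arid3a, Btg3 and Traf5, 0.918 to 0.927) had looser neighbours. With the group means taken out, r for these 27 pairs ran from 0.741 to 0.991. Among the members themselves, Itgal and Itgb2 had r = 0.984 and Sele and Itgb2 0.986, while Selplg and Icam1 had r = -0.397. With the group means taken out, r for these pairs was 0.941, 0.951 and -0.05 in that order. The libraries share depth scaling and differ in tissue content, so these values describe these 12 libraries.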

How the data were processed

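Total RNA of 12 brain samples was extracted with TRIzol and made into libraries with a Yeasen mRNA kit, per the labels' protocols. Per the submitters' processing notes, FastQC and Trimmomatic were used. The genome build, the aligner, the counter and whether it used strand are not given in the sources used here. The authors deposited raw read counts in 1 table of 31177 rows, 9127 of them for new loci.

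The counts were tested with edgeR 4.0.16 in R 4.3.3: filterByExpr on the group, TMM scaling, 1 quasi-likelihood fit over all 12 libraries and Benjamini-Hochberg adjustment over the 18850 genes kept. Genes with an adjusted p under 0.05 were called. An SE is the log2 fold change divided by the square root of F. CPM are counts over the TMM-scaled library size in units of 1000000 counts, and are compared between libraries, not between genes. Totals of 26668974 to 35351792 counts mean that 1 count is worth about the same small CPM everywhere, while the spread between libraries (square root of the common dispersion 0.415) limits most results. No 2 libraries of the same group agreed within sampling noise. The procedure was tested on simulated data. Alternatives used DESeq2 1.42.0, limma 3.58.1, other scalings and filters, 2 groups at a time, a replicate block and fewer libraries. Without a stated strand setting, reads of overlapping genes cannot be told apart.

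The 9 genes, the pathway and marker lists and the tests were chosen with earlier results of these data known. Named genes are the 9, up to 4 called genes with the smallest p in each list, the 3 genes with the highest Pearson r to each of the 9, and a few region and blood genes; the genes named beyond that were chosen after their values were seen. A result for 1 listed gene is not reported here.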

Additional observations from a re-analysis of the deposited data

Results flagged for a closer look

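Of 27 sets of 4 values (9 genes in 3 groups), 1 held a library whose gap to its neighbours was wider than Dixon's critical value: Icam2 in Sham, where Sham-3 stood at 4.35 CPM and the other 3 libraries at 3.67 to 3.78 CPM. Chance alone marks about 1 such set in 20.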

How the results depend on the processing

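In AD-HFD against Sham the count of the 9 genes called was 7, and 6 to 8 with 1 library left out; the count over all genes, 6162, ran from 3514 to 8615 with 1 library left out (lowest without Sham-1, highest without AD-HFD-3). In AD against Sham 1174 genes were called, against 2602 with DESeq2, 2363 with only those 2 groups fitted, 2801 without both AD-HFD-4 and AD-HFD-3, and 302 to 2329 with 1 library left out (lowest without Sham-1, highest without AD-3). Of the 9 genes 0 were called there, against 4 with DESeq2, 3 with only 2 groups, 2 with AD-3 as the only AD library, 3 without both AD-HFD-4 and AD-HFD-3, and 0 to 2 with 1 library left out. The lone AD-3 library is assumed to vary like the other groups. In AD-HFD against AD 2 genes were called, against 3311 with DESeq2, 0 with only 2 groups or with AD-3 as the only AD library, 1896 without both AD-HFD-4 and AD-HFD-3, and 0 to 5841 with 1 library left out. Of the 9 genes 0 were called, against 6 with DESeq2, 4 without both AD-HFD-4 and AD-HFD-3, and 0 to 8 with 1 library left out. The cause was not tested.

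The log2 fold change of Selplg in AD-HFD against AD, 0.04, was -0.049 with upper-quartile scaling, -0.032 with limma voom, -0.005 with no filter, -0.009 with 2 groups, -0.018 with the replicate block and -0.238 without both AD-HFD-4 and AD-HFD-3, and -0.472 to 0.286 with 1 library left out. That of Itga4 in AD against Sham was -0.799 to 0.042 with 1 library left out, above 0 without Sham-4. With the replicate number as a block 851 genes were called in AD against Sham, 5 in AD-HFD against AD and 5156 in AD-HFD against Sham, and 0, 0 and 7 of the 9 genes. Between deviations from group means, r was -0.411 to 0.116 for same-numbered libraries and -0.43 to 0.522 for the others. What the replicate numbers stand for is not given. Whether same-numbered libraries shared a litter, day or batch cannot be told from these values, because the libraries also differ in tissue content.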
